A study of Mus musculus with 9 samples.

Results

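Hoxb13, Foxa1, Spdef, Fkbp5, Tmprss2, Pbsn, Steap4 and Zbtb16 are genes of the androgen receptor program and of the luminal cells of the prostate. These 8 genes were chosen by name and were found as 8 of the 15552 genes in the count table, each under 1 identifier. The cells were MyC-CaP, a mouse prostate cancer line taken from a tumor driven by a MYC transgene, grown in DMEM with serum before the experiment. All 9 cultures were starved for 6 to 12 h in medium without serum or calcium. Those of the 12 and 24 h groups then received recombinant NRG1, which binds and activates HER3, at 15 ng/mL for that time. For the 0 h cultures no NRG1 dose applies. There were 3 libraries of mRNA at each time. MyC-CaP is a single line, no androgen was named among the additions, and cultures kept for 12 or 24 h without NRG1 were not analysed here. Time in the starvation medium and time with NRG1 therefore cannot be told apart in any of the values given here.

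The androgen receptor is a transcription factor that moves to the nucleus when it binds testosterone or dihydrotestosterone and switches on genes that prostate luminal cells need for secretion. FOXA1 opens chromatin for the receptor and HOXB13 binds many of the same sites, so both help to set which genes it can reach in prostate cells. FKBP5, ZBTB16, STEAP4 and TMPRSS2 are known as androgen-induced genes, probasin (Pbsn) is the classical androgen-induced secretory protein of the rodent prostate, and SPDEF is an Ets transcription factor of luminal epithelium.

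Of the 8 genes, 5 were measured at depth and 3 were too low to measure, here meaning that the low-count filter (filterByExpr in edgeR) dropped them. Among the 5, Steap4 fell by 36.2% at 12 h and by 38.7% at 24 h, Hoxb13 rose at 12 h and fell between 12 and 24 h, Zbtb16 passed the test as lower at 12 h by a small amount, and Foxa1 and Fkbp5 passed in no comparison. Spdef, Tmprss2 and Pbsn held 2, 4 and 5 counts in total over the 9 libraries. The libraries held 28467089 to 39239760 counts each, so that a gene with 3 counts stood at 0.0764 to 0.106 CPM, the count scaled to library size with TMM factors. Replicates of 1 time point differed by more than counting noise, with chi-square values per degree of freedom from 3.75 to 10.1, and the 2 highest values both involved replicate 3 at 12 h. The labels call the libraries biological replicates of 1 cell line, and the study's methods describe cells plated in triplicate. P-values measure the spread between these cultures, and whether they came from separate experiments was not stated.

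The stretches upstream of 3 of the genes are shown because they set the gene that fell most, Steap4, beside 2 genes that were barely detected, Spdef and Tmprss2. They are RefSeq sequences of GRCm38.p6, read 5′ to 3′ on the gene's strand, and end at the RefSeq start site or at the first exon base of the GENCODE gene, whichever comes first. They are Steap4 at chr5:7960222-7960456 on the plus strand, Spdef at chr17:27728956-27729201 on the minus strand and Tmprss2 at chr16:97611196-97611445 on the minus strand. Capitals mark a match to AGAACA or its other strand TGTTCT, a single arm (half-site) of the element that the androgen and glucocorticoid receptors bind.
Steap4: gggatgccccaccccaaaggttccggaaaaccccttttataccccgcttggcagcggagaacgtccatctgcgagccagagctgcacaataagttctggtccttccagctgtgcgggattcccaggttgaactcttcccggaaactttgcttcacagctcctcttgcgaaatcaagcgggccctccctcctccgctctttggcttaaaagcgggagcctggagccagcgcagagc
Spdef: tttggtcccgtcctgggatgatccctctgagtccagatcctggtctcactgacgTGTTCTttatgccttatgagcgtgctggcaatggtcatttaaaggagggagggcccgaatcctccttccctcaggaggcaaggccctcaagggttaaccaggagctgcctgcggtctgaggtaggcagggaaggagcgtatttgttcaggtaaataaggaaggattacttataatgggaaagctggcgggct
Tmprss2: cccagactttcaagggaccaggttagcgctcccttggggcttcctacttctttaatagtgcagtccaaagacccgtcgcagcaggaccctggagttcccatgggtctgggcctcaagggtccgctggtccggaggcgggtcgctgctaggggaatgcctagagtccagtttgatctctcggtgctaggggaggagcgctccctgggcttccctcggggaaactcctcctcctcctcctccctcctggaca

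RefSeq windows of 250 bases before the start were matched for 6 of the 8 genes, and none was matched for Hoxb13 or Zbtb16. The single arm was present in the windows of Spdef, at -196 to -191 from the start, and of Pbsn, at -95 to -90, and 16.1% of the 32851 promoters in the table held it. The forkhead letters GTAAACA or TGTTTAC were found in the window of Foxa1, at -141 to -135, and in 3.17% of all promoters. The exact letters of both arms, facing each other across a gap of 3 bases (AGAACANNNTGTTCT), were found in 3 promoters of the whole table, or 0.00913%. They were found in 0 of the 6 windows. A match this rare would be missing from nearly any 6 windows, so nothing is concluded from it about receptor binding. The windows of Foxa1 and Fkbp5 lay inside the longer GENCODE models of those genes. In the Pbsn window, the 123 bases nearest the start lay in its GENCODE exon, and the Pbsn match was among them. Because of this, only 30 bases around the match are shown for Foxa1 (chr12:57546235-57546264, minus strand) and Pbsn (chrX:77853578-77853607, minus strand), with the matched letters in capitals.
Foxa1: ttatactgctttGTAAACAaagtgagggcc
Pbsn: caactgggatgcAGAACActgctcacgcca

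The windows also differed in base composition. GC content was 68% for Fkbp5, 62% for Foxa1, 61.6% for Tmprss2, 58.4% for Steap4, 52.8% for Spdef and 41.2% for Pbsn, beside a median of 52.4% over all promoters. CpG pairs numbered 23, 21, 10, 12, 7 and 1 in the same order, with a median of 6. Of the 3 barely detected genes, Tmprss2 was above the GC median by several points, Spdef was at it and Pbsn was below it. The windows of these 3 thus did not share a composition. All values are for the full windows, with the exon bases of the Pbsn window included.

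To place the genes among all others, counts were divided by exon length, giving RPKM, the CPM per kilobase of exon, for 15541 genes with a length. The length was that of all annotated exons of a gene together. The order between genes depends on that choice, and the SD covers only the spread of the libraries. The order of the measured genes by RPKM was Fkbp5 and Foxa1, then Zbtb16 and Hoxb13, then Steap4. At 0 h Fkbp5 was at 86.38 ± 3.77 RPKM and Foxa1 at 84.35 ± 1.81, and their libraries overlapped there and at 12 h. At 24 h Foxa1, at 87.53 ± 1.68 RPKM, was above Fkbp5, at 81.19 ± 2.12, in every library. Zbtb16 and Hoxb13 changed places between 0 and 12 h, without overlap of their libraries at either time.
At 0 h Zbtb16 was higher, at 42.08 ± 1.5 RPKM against 38.22 ± 1.22. At 12 h Hoxb13 was higher, at 46.26 ± 1.65 RPKM against 39.02 ± 1.38. At 24 h, at 40.9 ± 1.48 RPKM for Hoxb13 and 40 ± 0.55 for Zbtb16, their libraries overlapped. Steap4 was the lowest of the 5 at every time, at 31.7 ± 3.22, 20.2 ± 0.717 and 19.4 ± 1.44 RPKM. Even so it ranked in the top 13.7% of genes, and Foxa1, the highest by its mean over 9 libraries, in the top 3.08%.

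**Figure D1:**
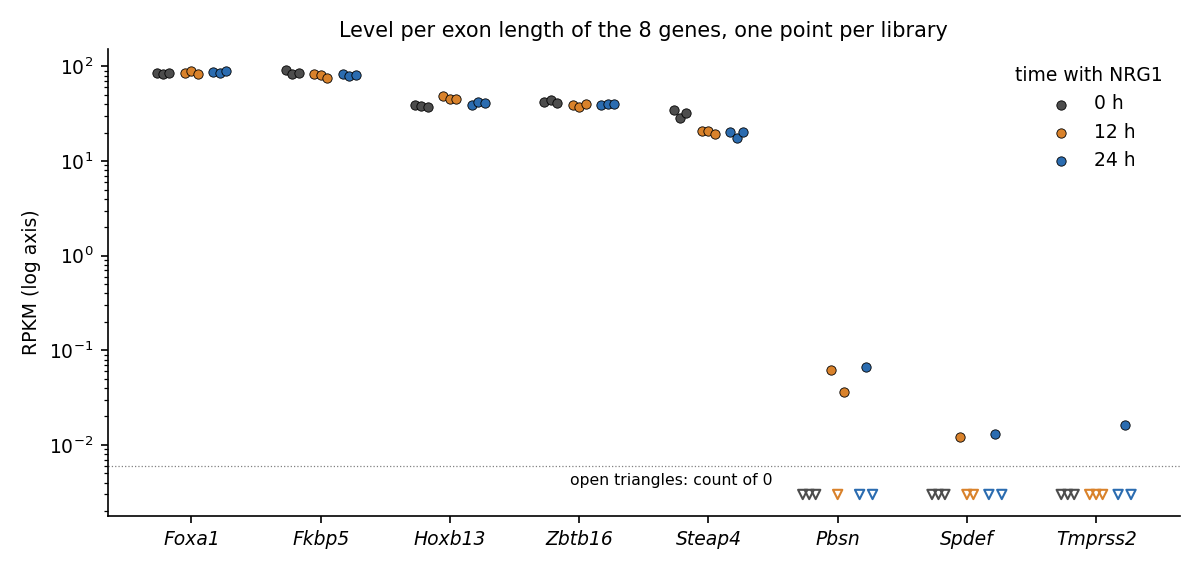
Level per exon length (RPKM, log axis) of the 8 genes, 1 point per library, with color for the time with NRG1. Foxa1 and Fkbp5 share the highest level, and Pbsn, Spdef and Tmprss2 lie below 0.1 RPKM in the few libraries with any count, with open triangles for a count of 0.

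Foxa1, the pioneer factor (ENSMUSG00000035451.7, chr12:57540628-57546916, minus strand), passed the test in none of the 3 comparisons, and its intervals were narrow. It was at 281.5, 274.2 and 286.2 CPM at 0 h, at 280.4, 297.3 and 277.6 CPM at 12 h, and at 292.3, 285.2 and 296.1 CPM at 24 h. The libraries of the 3 times overlapped, and all 9 lay between 274.2 and 297.3 CPM. The log2 fold change was 0.02 at 12 h (95% interval -0.06 to 0.10, adjusted p = 0.699) and 0.05 at 24 h (-0.02 to 0.13, adjusted p = 0.36). Between 24 and 12 h it was 0.03 (-0.05 to 0.11, adjusted p = 0.698).

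Hoxb13, the homeobox factor of the posterior body axis and the adult prostate (ENSMUSG00000049604.3, chr11:96194316-96197447, plus strand), rose at 12 h and was lower again at 24 h. It was at 86.48, 85.18 and 81.3 CPM at 0 h, at 106.2, 100.1 and 99.79 CPM at 12 h, and at 86.64, 93 and 91.07 CPM at 24 h. Every library at 12 h was above every library of the other times, while the lowest at 24 h was next to the highest at 0 h. At 12 h the mean was 102 ± 3.63 CPM (SD, n = 3) against 84.32 ± 2.69 at 0 h, a log2 fold change of 0.28 ± 0.04 (SE, adjusted p = 0.000168), or 21.1% higher. In RNA of whole cultures, a change in the share of cells that carry a transcript and a change in RNA per cell cannot be told apart.
At 24 h the mean was 90.24 ± 3.26 CPM, and the log2 fold change against 0 h was 0.10 (95% interval 0.01 to 0.19, adjusted p = 0.129). Against 12 h it was -0.18 ± 0.04 (adjusted p = 0.0227). Leaving out replicate 1 at 12 h ended this call (-0.15, adjusted p = 0.124). So did leaving out replicate 1 (-0.15, adjusted p = 0.135) or replicate 3 (-0.18, adjusted p = 0.0809) at 24 h.

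Some keratins also changed at 12 h. Krt15, a basal keratin, had means of 186.7 ± 27.8, 252.3 ± 19.1 and 160.5 ± 16.3 CPM (SD, n = 3) at the 3 times. It rose by 0.44 on the log2 scale at 12 h (adjusted p = 0.00115) and fell by 0.65 between 12 and 24 h (adjusted p = 0.000329). Over the basal list, 4 of 5 markers were in the table and their summed level was 169.4 to 219.2 CPM at 0 h, 238.5 to 274.3 at 12 h and 150.7 to 179.5 at 24 h. Only Krt15 of that list could be tested, and Krt14, Trp63 and Col17a1 had at most 12, 9 and 1 counts in any library. Of the luminal keratins, Krt19 rose by 0.41 at 12 h (adjusted p = 0.0134), with a wide spread at 0 h (98.7 ± 22.9 CPM) and overlapping libraries. Krt8 rose by 0.30 at 12 h (adjusted p = 0.0169) and by 0.34 at 24 h (adjusted p = 0.0107), while Krt18 did not pass (0.30 at 12 h, adjusted p = 0.686). The part of these marker levels in the Hoxb13 values was not tested.

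Fkbp5, a co-chaperone of HSP90 in steroid receptor complexes (ENSMUSG00000024222.17, chr17:28399094-28517527, minus strand), was the most abundant of the 8 in CPM. It was at 858.9, 795.2 and 799.3 CPM at 0 h, at 795.3, 768.6 and 723.2 CPM at 12 h, and at 785.2, 746.4 and 774.6 CPM at 24 h. All 3 libraries at 24 h were below all 3 at 0 h, and at 12 h the highest library just reached the lowest at 0 h. The log2 fold change was -0.10 at 12 h (95% interval -0.19 to -0.01, adjusted p = 0.0878) and -0.09 at 24 h (-0.18 to -0.00082, adjusted p = 0.162), so neither passed. With total counts in place of TMM the 12 h value was -0.11 with an adjusted p of 0.0495, and without replicate 1 at 12 h it was -0.13 with 0.0474. It was smaller without replicate 3 at 12 h (-0.05, adjusted p = 0.391) or without replicate 1 at 0 h (-0.06, adjusted p = 0.28), and without the latter library the 24 h value was -0.05 (adjusted p = 0.431). Between 24 and 12 h the change was 0.01 (-0.08 to 0.10, adjusted p = 0.91).

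Zbtb16, a zinc finger transcription factor also called PLZF (ENSMUSG00000066687.5, chr9:48654297-48836222, minus strand), showed a small difference at the edge of the threshold. It was at 219.9, 231.1 and 215.9 CPM at 0 h, at 208.3, 198 and 212.1 CPM at 12 h, and at 208, 212.7 and 213.2 CPM at 24 h. Both later times lay below 0 h in every library, by gaps that were small next to the range at 0 h. The 12 h mean of 206.1 ± 7.3 CPM (SD, n = 3) against 222.3 ± 7.93 gave a log2 fold change of -0.11 ± 0.04 (adjusted p = 0.0465). In the fit, Zbtb16 fell by 7.28%. In 11 of 15 alternative settings the adjusted p was above the threshold, among them 8 of the 9 that left out 1 library (values from -0.12 to -0.07), and it ranged from 0.0246 to 0.232 over all 15. At 24 h the log2 fold change was -0.07 (95% interval -0.15 to 0.01, adjusted p = 0.214), or -0.04 without replicate 2 at 0 h (adjusted p = 0.589), and between 24 and 12 h it was 0.04 (adjusted p = 0.658).

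Steap4, a metalloreductase that reduces iron and copper (ENSMUSG00000012428.9, chr5:7960457-7982213, plus strand), had the largest change of the 5 measured genes. Its 3 libraries at 0 h held 3082, 3392 and 3493 counts, or 109.4, 89.21 and 101.4 CPM. At 12 h it was at 65.27, 64.79 and 61.13 CPM, and at 24 h at 63.42, 55.98 and 64.18 CPM. No library after 0 h reached the lowest at 0 h, and the 12 and 24 h libraries overlapped. The mean of 100 ± 10.2 CPM (SD, n = 3) dropped to 63.73 ± 2.26 after 12 h, a log2 fold change of -0.65 ± 0.07 (SE, adjusted p = 3.79e-06). It was 61.19 ± 4.53 CPM after 24 h, a change of -0.71 ± 0.07 (adjusted p = 1.5e-06).
Both comparisons use the same 0 h libraries. Between 24 and 12 h the change was -0.06 (95% interval -0.20 to 0.08, adjusted p = 0.681). Steap4 passed in both comparisons against 0 h under all 15 alternative settings. Without replicate 1 at 0 h, its highest library, the 12 h change was -0.58 and no longer reached 1.5-fold.

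**Figure D2:**
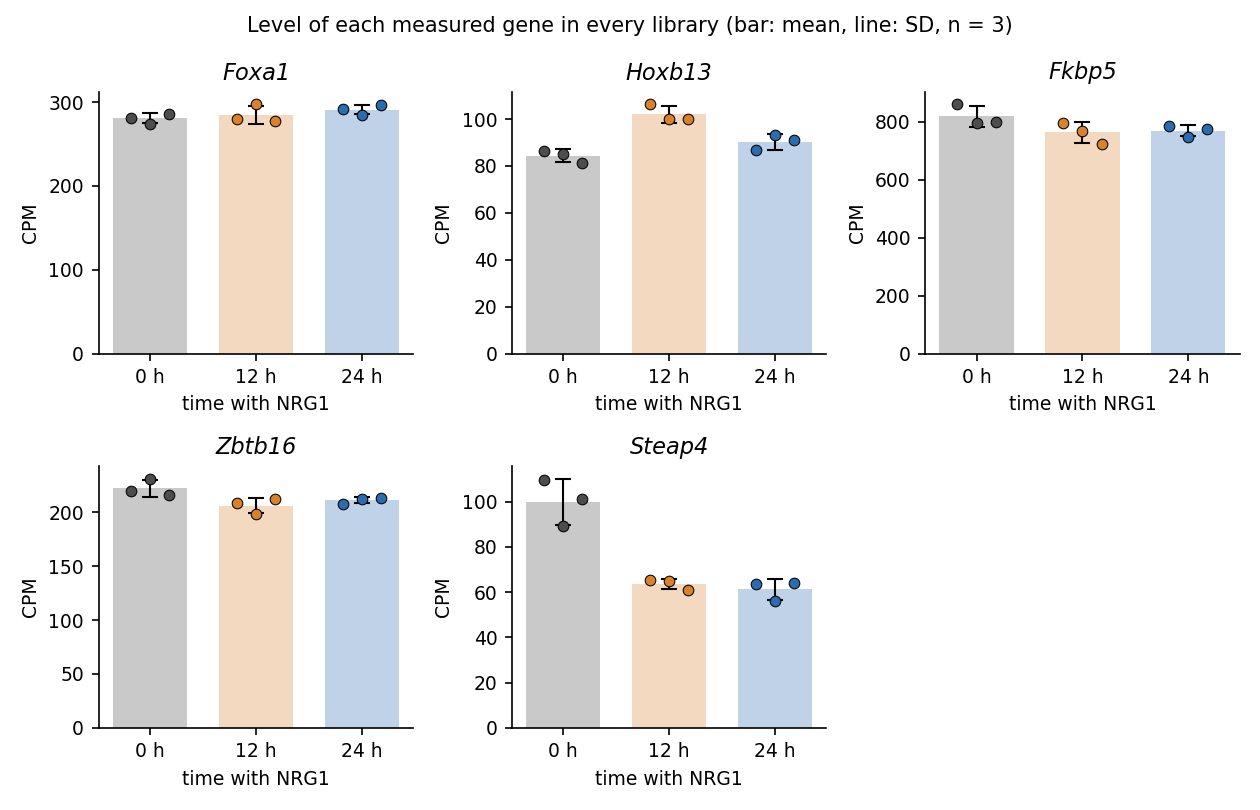
CPM of the 5 measured genes in each of the 9 libraries (points) by time with NRG1, with bars for the mean and lines for the SD of 3 libraries. Steap4 is separated from its 0 h level at both later times, and Hoxb13 is highest at 12 h in all 3 libraries.

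Relatives of Steap4 were compared as the closest genes of its family. Steap2, at 284.6 CPM over all libraries, and Steap1, at 35.04 CPM, were measured well, and Steap3 was at 0.58 CPM. None of the 3 passed the test at 12 or 24 h against 0 h. Steap1 had log2 fold changes of 0.07 (adjusted p = 0.438) and 0.14 (adjusted p = 0.152). Steap2 had -0.09 (adjusted p = 0.0988) and 0.11 (adjusted p = 0.0712), and rose between 12 and 24 h by 0.20 (adjusted p = 0.00781).

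The other 3 genes gave no usable level. Pbsn (ENSMUSG00000000003.15, chrX:77837901-77853623, minus strand) had 2 and 1 counts in replicates 1 and 3 at 12 h, 2 counts in replicate 2 at 24 h and 0 in the other 6 libraries. Tmprss2, a membrane serine protease (ENSMUSG00000000385.8, chr16:97564682-97611195, minus strand), had 4 counts, all in replicate 2 at 24 h, which is 0.1196 CPM. Spdef (ENSMUSG00000024215.14, chr17:27714352-27728955, minus strand) had 1 count in replicate 1 at 12 h and 1 in replicate 2 at 24 h.
All 3 were at 0 in each library at 0 h, where a count of 0 allows up to 0.0789 to 0.106 CPM, a limit that covers counting error only. Only Tmprss2 in 1 library exceeded the 3-count limit, and no fold or test is given for any of the 3. Exons of none of the 8 genes overlapped those of another gene in the annotation used.

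The calls on the 5 tested members were set beside those on all genes, and with 5 genes each call is a large share. At 12 h against 0 h, 1 of the 5 tested members was higher (Hoxb13) and 2 were lower (Steap4, Zbtb16), while 13.6% of the 11373 tested genes were higher and 11.9% lower at an adjusted p of 0.05. With a 1.5-fold change also required, 1 member passed (Steap4), beside 2.29% of all genes. At 24 h against 0 h, 1 member was lower (Steap4), beside 7.76% of all genes, and the same gene was the only one past 1.5-fold, beside 2.27%. No member was called higher at 24 h by edgeR, beside 9.67% of all genes, and DESeq2 also called 0, while 1 member, Hoxb13, had an unadjusted p under 0.05.
At 24 h against 12 h, Hoxb13 was the 1 member called lower, beside 3.06% of all genes. No member was called higher there by edgeR, beside 1.97%, with 0 by DESeq2 and 0 at an unadjusted p under 0.05, and no member passed 1.5-fold, beside 0.29%. In a test of all 3 times at once, 2 members passed, Hoxb13 (adjusted p = 0.000426) and Steap4 (adjusted p = 1.28e-06).

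**Figure D3:**
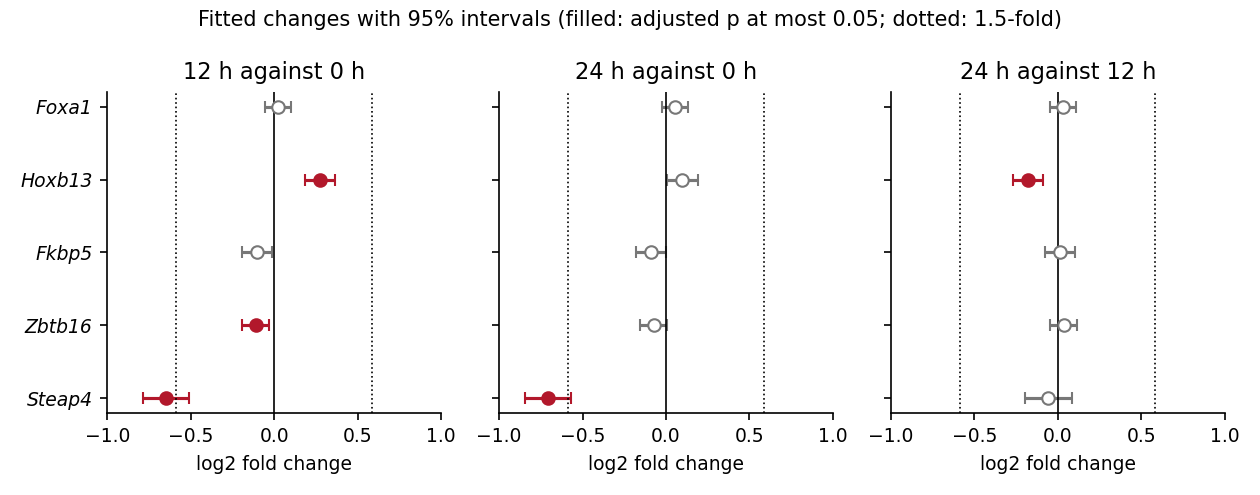
Log2 fold changes of the 5 measured genes in the 3 comparisons, with 95% intervals, filled points for an adjusted p of at most 0.05 and dotted lines at 1.5-fold. Steap4 at 12 and 24 h against 0 h is the only gene whose estimate lies beyond a dotted line, and the intervals of Foxa1 include 0 in each panel.

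The genes whose log2 CPM ran closest to the 2 that passed this joint test were found among 8411 tested genes with a mean of at least 10 CPM. Genes with a predicted or clone name were left out of this search. For Hoxb13 these were Acp1 (Pearson r = 0.981 over the 9 libraries), Entpd5 (0.972) and Nt5dc2 (0.966). Mean levels of Acp1 over time were 47.34, 56.4 and 50.73 CPM. For Steap4 they were Ppt1 (0.991), Apof (0.989) and Ctr9 (0.984). Ppt1, the closest, had mean levels of 75.79, 66.75 and 65.39 CPM at the 3 times. Apof had mean levels of 16.05, 9.141 and 8.971 CPM and Ctr9 of 547.6, 408 and 389.3 CPM. A high correlation thus did not require a change of like size. These correlations describe the same 9 libraries, whose shared time points enter every value, and the genes were picked for the highest of them.

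Beyond the 8, 27 of 35 other androgen-induced genes could be tested, and they moved in both directions. At 12 h, 5 rose (18.5%, beside 13.6% of all genes), 7 fell (25.9% beside 11.9%) and 15 did not pass, with a median log2 fold change of -0.04 beside -0.0028 over all genes. At 24 h, 5 rose (18.5% beside 9.67%), 5 fell (18.5% beside 7.76%) and 17 did not pass, with a median of -0.0075 beside -0.0065. None of the calls reached 1.5-fold.
Acsl3, which activates long-chain fatty acids, rose by 0.22 at 12 h (adjusted p = 0.00834) and 0.24 at 24 h (adjusted p = 0.00675). Odc1, the ornithine decarboxylase of polyamine synthesis, rose by 0.21 at 12 h (adjusted p = 0.00789). Maf, a bZIP transcription factor, was near its 0 h level at 12 h (122 ± 1.53 CPM against 119.2 ± 0.844) and rose to 164.4 ± 2.93 CPM at 24 h, by 0.46 (adjusted p = 2.43e-07). Iqgap2, a scaffold protein, changed by -0.12 at 12 h (adjusted p = 0.0333) and by 0.12 at 24 h (adjusted p = 0.0489), each against 0 h. Between 12 and 24 h it rose by 0.24 (adjusted p = 0.00231). Among the falls, Gpd1l changed by -0.27 at 12 h (adjusted p = 0.000804), Tmc4 by -0.42 at both times (adjusted p = 0.019 and 0.0239), and Slc45a3, the gene of prostein, by -0.31 at 24 h (adjusted p = 0.0311). Exons of Slc45a3 and Tmc4 overlap other genes by 13.5% on the same strand and 13.9% on the opposite strand, and whether the counting used strand was not stated.

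The receptor's partners, coregulators and chaperones included 22 tested genes of 23. At 12 h, 3 rose (13.6%, beside 13.6% of all genes) and 5 fell (22.7% beside 11.9%), with a median of -0.07 beside -0.0028. At 24 h, 1 rose (4.55% beside 9.67%) and 4 fell (18.2% beside 7.76%), with a median of -0.04 beside -0.0065. The rises at 12 h included Hsp90aa1, a chaperone of the receptor complex, by 0.24 (adjusted p = 7.45e-05), and Ptges3, the p23 co-chaperone, by 0.22 (adjusted p = 0.000228). Fkbp4, of the same list, rose by 0.13 (adjusted p = 0.0189). Hsp90ab1, the more abundant HSP90 gene (5289 CPM over all libraries beside 850.9), did not pass at 12 h (-0.07, adjusted p = 0.189). At 24 h Hsp90ab1 was lower by 0.13 (adjusted p = 0.0202). Hspa8 did not pass at 12 h (-0.06, adjusted p = 0.235). Hsp90aa1 fell by 0.15 between 12 and 24 h (adjusted p = 0.0167). The falls included the coactivator Ncoa1, by 0.31 at 12 h (adjusted p = 0.000129), and Pias1, a SUMO ligase, by 0.27 (adjusted p = 0.000556), and both were also called lower at 24 h. Hsp90aa1 and Ptges3 have processed copies in the genome, and how reads shared with such copies were counted was not stated. Gata2, which works with FOXA1 at many receptor sites in human prostate cells, had at most 3 counts in a library.

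The other steroid receptors that bind the same DNA element were barely detected. The glucocorticoid receptor Nr3c1 had 0 to 17 counts per library, a mean of 0.20 CPM, and Nr3c2 and Pgr had at most 4 and 2 counts. Only Esr1, the estrogen receptor, was tested, at 19.87 CPM, and was lower at 12 h by 0.25 on the log2 scale (adjusted p = 0.0155). Of 10 genes that the glucocorticoid receptor shares with the androgen receptor, 1 rose and 2 fell at 12 h, or 10% and 20% beside 13.6% and 11.9% of all genes, with a median of 0.02 beside -0.0028. Ddit4, a stress-induced inhibitor of mTORC1, rose by 0.23 (adjusted p = 0.00259), Tsc22d3, also called GILZ, changed by -0.14 (adjusted p = 0.0059) and Cebpd, a bZIP factor, by -0.58 (adjusted p = 0.000132). At 24 h, Ddit4 was higher by 0.21 (adjusted p = 0.00711) and Cebpd changed by -0.45 (adjusted p = 0.00141). Tsc22d3 rose by 0.15 between 12 and 24 h (adjusted p = 0.0185) and was near its 0 h level at 24 h (0.0073, adjusted p = 0.92). Opposite-strand exons cover 15% of Cebpd.

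In the list for androgen synthesis and metabolism, 5 of 13 genes were tested, and at 12 h 1 rose and 1 fell, 20% each beside 13.6% and 11.9% of all genes. Srd5a1, the steroid 5-alpha-reductase, rose by 0.29 at 12 h (adjusted p = 0.014), and Star, which brings cholesterol into mitochondria, fell by 0.57 (adjusted p = 0.0128) from a low 3.794 ± 0.631 CPM. At 24 h, Hsd17b4, a peroxisomal enzyme of the same list, changed by -0.13 (adjusted p = 0.0265). Same-strand exons of another gene cover 16.4% of Srd5a1. Among close family members of the 8 genes, 15 of 25 were tested, with 4 rises at 12 h (26.7% beside 13.6% of all genes) and 2 at 24 h (13.3% beside 9.67%). Falls numbered 0 at both times, beside 11.9% and 7.76% of all genes. The medians were 0.07 and 0.11, beside -0.0028 and -0.0065 over all genes. Hoxb9, in the same cluster as Hoxb13, rose by 0.45 at 12 h (adjusted p = 0.0142), with 19.75 ± 2.23 CPM at 0 h and 27.2 ± 5.99 at 12 h. Zbtb7a, a relative of Zbtb16, rose by 0.20 at 12 h (adjusted p = 0.00149) and 0.19 at 24 h (adjusted p = 0.004), while Zbtb16 had negative values at both times. Zbtb32 (0.30, adjusted p = 0.0792) and Zbtb20 (-0.39, adjusted p = 0.0549), of the same family, did not pass at 12 h. Fkbp1a, a relative of Fkbp5, rose by 0.19 at 12 h (adjusted p = 0.00149) and by 0.15 at 24 h (adjusted p = 0.00886).

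**Figure D4:**
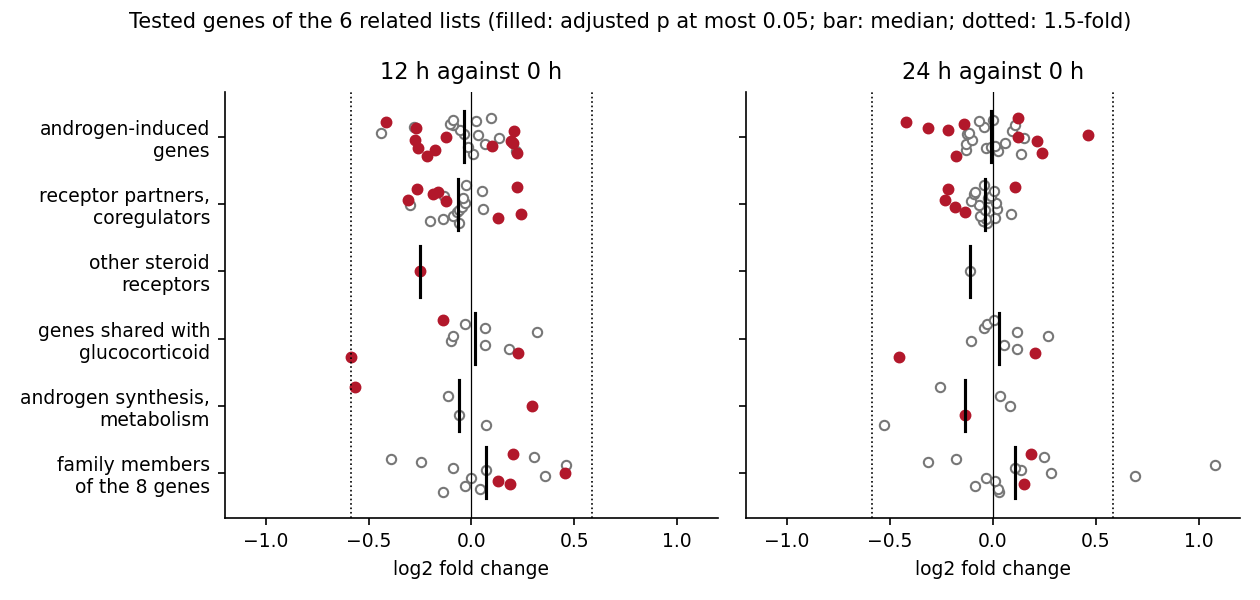
Log2 fold changes of the tested genes of the 6 related lists at 12 and 24 h against 0 h, 1 point per gene, filled for an adjusted p of at most 0.05, with a bar at each median and dotted lines at 1.5-fold. Filled points fall on both sides of 0 in the androgen-induced list, 5 rises and 7 falls at 12 h.

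The luminal label was checked against its markers. Of 9 luminal markers, Foxa1, Hoxb13, Krt8 (21.19 CPM), Krt19 (110.4 CPM) and Cd24a (80.95 CPM) were present, while Krt18 was at 0.32 CPM and Epcam, Cdh1 and Spdef had at most 3, 4 and 1 counts in any library. The list holds 3 of the 8 genes themselves, and the summed level of its other 6 markers was 173 to 223 CPM at 0 h, 229.7 to 250 at 12 h and 194.1 to 220.4 at 24 h. Of the secretory markers, Pbsn and Azgp1 had at most 2 counts and Tgm4 had 12 to 42 counts per library. The data thus show transcripts of Foxa1 and Hoxb13 beside at most 4 counts per library of the adhesion genes Epcam and Cdh1 and of the secretory product Pbsn, and the name luminal holds for only part of its markers. Of markers of other lineages, basal Krt15 was at 199.8 CPM, neuroendocrine Ncam1 at 68.62 CPM and mesenchymal Pdgfra at 16.47 CPM. Ncam1 and Pdgfra passed the test in no comparison, and each stood alone in its list. Chga, Chgb, Syp, Insm1 and Eno2 of the neuroendocrine list had at most 5 counts in any library. Col1a1, Col1a2, Dcn, Acta2 and Des of the mesenchymal list had at most 17. The 5 leukocyte markers summed to at most 1.106 CPM and the 4 endothelial markers to at most 0.3588 CPM in any library.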

How the data were processed

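RNA of 9 cultures of MyC-CaP cells was measured by sequencing of mRNA libraries. The authors trimmed reads with Cutadapt, aligned them with STAR to GRCm38.p6 with a GENCODE annotation (release 24 of the mouse series), and assigned them to genes with featureCounts. The deposited table holds raw counts, as the authors obtained them and without normalization. Use of strand and handling of reads that match several genes were not given in the sources used here.

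Counts were scaled by TMM and fitted for all 9 libraries together in edgeR 4.0.16 (R 4.3.3), after filterByExpr had kept 11373 of 15552 genes (73.1%). Time points were compared with the quasi-likelihood F test, and p-values were adjusted by Benjamini-Hochberg over all tested genes. A gene was called at an adjusted p of at most 0.05, and separately with a fold change of at least 1.5, the thresholds of the study. Standard errors were derived from each F statistic and its fold change. The procedure was tested on simulated data before use. RPKM used exon lengths of GENCODE release 21, whose gene ends matched the table for 99.1% of genes.

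Libraries held 28467089 to 39239760 counts. The labelled time of treatment defined the groups. Alternatives were total counts, DESeq2 size factors, DESeq2 1.42.0, no filter, only the 2 times compared, a replicate block, and leaving out each library. The 8 genes and the gene lists were chosen with earlier results of these data known, so lists are described by counts and medians without a test. The text names all 8 genes, the other steroid receptors and, from each list and comparison, up to 2 called rises and 2 called falls of largest size with a mean of at least 1 CPM, besides the 3 genes closest to each member that passed the joint test. Some genes that these rules would name are not reported here. Markers at low counts, Gata2 and the other Steap genes were named after their values were seen. The same holds for Hsp90ab1, Hspa8, Fkbp4, Zbtb20, Zbtb32 and the 12 h value of Fkbp1a. Promoter sequences are from RefSeq, 250 bases before the start, and motifs were searched as exact letters on both strands.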

Additional observations from a re-analysis of the deposited data

How the results depend on the processing

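Over the 5 measured genes, 3 comparisons and 15 alternative settings gave 225 values, of which 208 stayed on their side of the threshold and 17 crossed it, and 0 called values turned in direction. The number of members lower at 12 h than at 0 h, 2 in the fit reported, was 3 with total counts in place of TMM, where Fkbp5 also passed. It was 1 with no filter on low counts and 1 with only the 2 time points compared, and ranged from 1 to 2 when single libraries were left out. Zbtb16 was lost in 8 of these 9, and without replicate 1 at 12 h Fkbp5 passed in its place. The number past 1.5-fold at 12 h ranged from 0 to 1, with 0 without replicate 1 at 0 h, and the number lower at 24 h than at 12 h from 0 to 1, with 0 when replicate 1 at 12 h was left out, and likewise for replicates 1 and 3 at 24 h. The cause of these losses was not tested. With the replicate block the number lower at 12 h was again 2, but the genes were Steap4 and Fkbp5 (-0.10, adjusted p = 0.045) while Zbtb16 missed the threshold (-0.11, adjusted p = 0.0589), and the block changed no other call. Deviations of same-numbered libraries had correlations from -0.0744 to 0.131, beside -0.125 to 0.12 for libraries of other numbers. The replicate numbers were not taken as pairs because the study's methods name no pairing. Spdef, Tmprss2 and Pbsn had at most 1, 4 and 2 counts in any library and 0 in most, too few to measure a change.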
